A study of Arabidopsis thaliana with 10 samples.

Results

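The ARGOS family of Arabidopsis thaliana is described here by 3 of the 33559 genes in the deposited table, found by their gene identifiers: ARGOS (AT3G59900), ARL (AT2G44080) and ORS1 (AT2G41230, also called OSR1). Transcript levels were measured in seedlings kept in darkness for 3 days at 22 °C and harvested without roots, with 2 biological replicates in each of 5 genotypes in the Col-0 background. The hls1 mutant lacks HOOKLESS1, without which the hypocotyl tip of a dark-grown seedling does not bend into a hook. In pifq 4 transcription factor genes that repress light responses in darkness are mutant: PIF1, PIF3, PIF4 and PIF5. In ein3 eil1 the chief transcription factors downstream of ethylene are missing, and pifq ein3 eil1 is mutant for all 6 genes. Col-0 was the wild type. The labels give no hormone treatment, so the transcript levels are those of seedlings without added ethylene. The labels name no alleles.

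Ethylene is perceived by receptors in the endoplasmic reticulum membrane, which in air keep the kinase CTR1 active and the pathway shut. When ethylene binds, EIN2 is released from this block and the transcription factors EIN3 and EIL1 accumulate and switch on response genes, some of which feed back on the pathway. ARGOS proteins are small membrane proteins of the endoplasmic reticulum that reduce ethylene sensitivity when overexpressed, and their transcripts are known to be induced by ethylene. The family was first known for organ size: ARGOS is induced by auxin and promotes growth mainly through cell number, ARL is induced by brassinosteroid and promotes cell expansion, and ORS1 responds to several hormones.

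The members differ in sequence, which bears on whether their reads can be told apart. In the RefSeq annotation of TAIR10.1, ARGOS is a single-exon gene at chr3:22129505-22130472 on the plus strand with a coding length of 393 bases. ARL, at chr2:18236789-18238173 on the plus strand, has 2 exons and 408 coding bases, and ORS1, at chr2:17194748-17195697 on the minus strand, has 1 exon and 267 coding bases. ARGOS and ARL shared 73.6% of 390 aligned coding bases, ORS1 and ARGOS shared 46.7% of 261, and ORS1 and ARL shared 46.4% of 267. The longest run of bases common to any pair of transcripts was 17, between ARL and ARGOS, far below the read length of 150 nt, and a BLAST search of the genome at an expected value of 1e-05 returned no locus outside the family. The most alike ungapped stretch of 90 coding bases in all 3 genes makes the family likeness visible; in the lines that follow, capitals mark the 48 bases that are identical in all 3.
ARGOS: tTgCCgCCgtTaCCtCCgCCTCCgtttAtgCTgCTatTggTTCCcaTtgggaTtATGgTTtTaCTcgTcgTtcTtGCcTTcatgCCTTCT
ARL: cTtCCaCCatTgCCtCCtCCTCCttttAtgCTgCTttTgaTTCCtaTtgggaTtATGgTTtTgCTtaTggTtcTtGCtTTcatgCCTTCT
ORS1: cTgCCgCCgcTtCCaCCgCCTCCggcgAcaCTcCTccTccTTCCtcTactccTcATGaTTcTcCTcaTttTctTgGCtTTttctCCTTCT
These are coding bases 259 to 348 of ARGOS (chr3:22130299-22130388, plus strand), 277 to 366 of ARL (chr2:18238002-18238091, plus strand) and 139 to 228 of ORS1 (chr2:17195398-17195487, minus strand). ORS1 overlaps AT2G41231 on the opposite strand, which was listed at 0.157 RPKM in hls1, 0.298 RPKM in Col-0 and 0 in the other genotypes. The sources used here do not state whether counting used the strand, so reads of this pair cannot be told apart.

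The table gives RPKM, a read count scaled by gene length and library size, once for each gene in each genotype. From 48.3% to 48.7% of values above 0 had 7 digits and 95.1% to 95.9% of those ended in 5, as a mean of 2 rounded numbers does, so each was read as a mean that the authors took over both samples. Replicate spread cannot be seen in such values, so no difference was tested and no value has an error between samples. The call threshold was a difference in log2(RPKM + 1) of at least 1 in either direction, applied to the 18581 genes with 1 RPKM or more in any genotype. All 3 members passed this filter. Between 1.12% and 6.22% of the genes compared were called lower in each comparison and between 1.63% and 4.04% higher.

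EIN3 was at 17.9 and 13.3 RPKM in the genotypes mutant for it, against 84.0 RPKM in Col-0, and EIL1 at 10.8 and 10.7 RPKM against 44.4 RPKM. PIF3 was at 5.61 RPKM in pifq and 2.35 RPKM in pifq ein3 eil1, against 35.1 RPKM in Col-0, and PIF5 at 1.60 and 2.31 RPKM against 4.34 RPKM. PIF3 was also called lower in ein3 eil1, which is not mutant for it, at 12.7 RPKM, a difference of -1.40. The PIF5 difference was -0.69 in pifq ein3 eil1, under the threshold, and in pifq it was -1.04, or -0.98 and not called after scaling. PIF1 was at 18.2 and 11.8 RPKM against 19.0 RPKM, both under the threshold. PIF4 was not lower in the genotypes mutant for it: it was at 8.69 RPKM in pifq and 11.6 RPKM in pifq ein3 eil1, against 4.36 RPKM in Col-0, and was called higher in pifq ein3 eil1, with a difference of 1.24. The labels were used as given, and PIF1 and PIF4 do not mark the pifq genotypes by their level. HLS1 was at 6.28 RPKM in hls1 against 11.2 RPKM in Col-0, a difference of -0.74 under the threshold, and it was lower still in ein3 eil1, at 2.84 RPKM, so the HLS1 level does not set hls1 apart from the other genotypes. The 9 root markers, none of them at 0, summed to 127 RPKM in hls1, 20.6 in pifq, 156 in ein3 eil1, 42.9 in pifq ein3 eil1 and 124 in Col-0. CASP1 and TIP2;3 carried most of this sum, and the other root markers moved with them in some comparisons only. In pifq against Col-0, 4 of the 7 compared were lower and none higher, where 6.22% of all genes were lower and 3.39% higher. The list median was -1.20, beside -0.05 for all genes. In pifq ein3 eil1 against pifq, 4 of the 7 were higher and none lower, where 1.76% of all genes were higher and 1.12% lower. The list median was 1.07, beside -0.11 for all genes. In pifq ein3 eil1 against Col-0, 2 of the 7 were lower and 2 higher, where 6.04% of all genes were lower and 3.81% higher. The list median was 0.86, beside -0.17 for all genes. CASP1 was at 18.1 against 83.8 RPKM in this comparison, while PRP3 was at 5.28 against 1.58 RPKM. In ein3 eil1 against Col-0, 3 of the 7 were higher and none lower, where 1.63% of all genes were higher and 2.51% lower. The list median was 0.63, beside -0.29 for all genes. The 5 dark-grown shoot markers, also none at 0, summed to 540 RPKM in hls1, 1418 in pifq, 2813 in ein3 eil1, 823 in pifq ein3 eil1 and 3984 in Col-0. In hls1 against Col-0, 3 of them were lower and 1 higher, where 4.00% of all genes were lower and 3.40% higher. The list median was -3.34, beside 0.04 for all genes. Among the lower ones were PORA at 44.5 against 2089 RPKM and PORB at 145 against 1481 RPKM. PHYA was at 331 against 335 RPKM, and STM was the 1 called higher, at 14.4 against 5.73 RPKM. The part of these markers in the members' levels was not tested. In such bulk samples fewer cells of a type and less RNA per cell cannot be told apart.

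ARL had the highest RPKM of the 3 members in 4 of 5 genotypes. It stood at 158 RPKM in hls1, 76.8 in pifq, 21.6 in ein3 eil1, 22.3 in pifq ein3 eil1 and 103 in Col-0. The values fall apart into 3 high genotypes, which all carry EIN3 and EIL1, and 2 low ones, which carry neither; the lowest of the high values was 3.44 times the highest of the low ones. ARGOS stood at 79.4 RPKM in hls1, 35.2 in pifq, 25.3 in ein3 eil1, 15.7 in pifq ein3 eil1 and 62.6 in Col-0. Its levels formed a graded series instead, in which no step between neighbours exceeded 1.78 times. ORS1 stood at 15.5 RPKM in hls1, 3.99 in pifq, 0.747 in ein3 eil1, 1.58 in pifq ein3 eil1 and 3.36 in Col-0, and so had the widest range of the family, 20.8 times, against 7.35 times for ARL and 5.06 times for ARGOS. All 3 members were highest in hls1. Whether neighbouring levels differ beyond the spread between samples, such as ARL in pifq ein3 eil1 and ein3 eil1 or ORS1 in pifq and Col-0, cannot be read from 1 value per genotype.

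**Figure D1:**
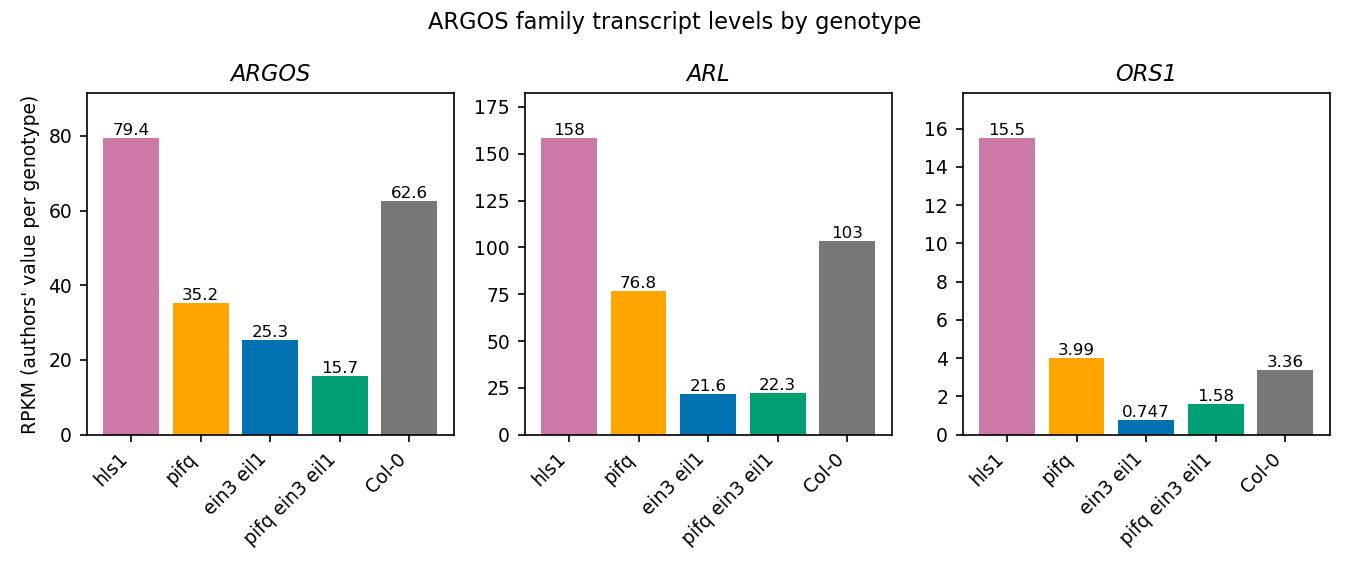
RPKM of ARGOS, ARL and ORS1 (vertical axes, each from 0 and with its own scale) in hls1, pifq, ein3 eil1, pifq ein3 eil1 and Col-0. Each bar is the authors' single value for a genotype, without error; all members are highest in hls1, ARL has 2 low genotypes at 21.6 and 22.3 RPKM, and ORS1 is at or below 3.99 RPKM outside hls1.

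The members' shares of the family's summed level differed between genotypes. RPKM is scaled by gene length, so levels of different members were set side by side. The gene lengths behind the deposited values are not known, so the shares are approximate. The summed level of the 3 transcripts was 253 RPKM in hls1, 116 in pifq, 47.6 in ein3 eil1, 39.6 in pifq ein3 eil1 and 169 in Col-0. ARL made up 62.5% of this sum in hls1, 66.2% in pifq, 45.3% in ein3 eil1, 56.4% in pifq ein3 eil1 and 61.0% in Col-0. In ein3 eil1 ARGOS had the highest RPKM, at 25.3 against 21.6 for ARL. Its share of the sum there was 53.2%, against 37.0% in Col-0. Whether ARGOS exceeds ARL there beyond the spread between samples cannot be read from 1 value per genotype. ORS1 supplied 6.12% in hls1 and 1.99% in Col-0. Among the genes compared, 95.2% lay below ARL in hls1 and 92.5% in Col-0, whereas 59.4% lay below ORS1 in hls1 and 22.4% in Col-0.

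Depth per sample is not stated, but the lowest values carry it. A window of 20 to 55 was set for the lowest peak in the products of RPKM and length. Among single-transcript genes of 800 to 1500 exonic bases, the median product in this window was 40.2 to 48.9. It was read as the size of 1 read pair in 1 of the 2 samples, which corresponds to roughly 10200000 to 12500000 read pairs per sample. The peak may run past the window, so these depths are approximate. The same products were used to check, over the table in general, that values belong to the identifiers on their lines. This was in doubt because the description text of each member stands on another line. In Col-0, 18 of 21149 products fell below 20, the lower bound of that window, when RPKM was multiplied by the length of the gene on the same line, and 181 when it was multiplied by that of the next line. This check covers a shift to the next line over all genes and cannot exclude a displacement at the members' lines alone. The lines that carry the family's descriptions, AT3G59880, AT2G44150 and AT2G41240, were not used.

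**Figure D2:**
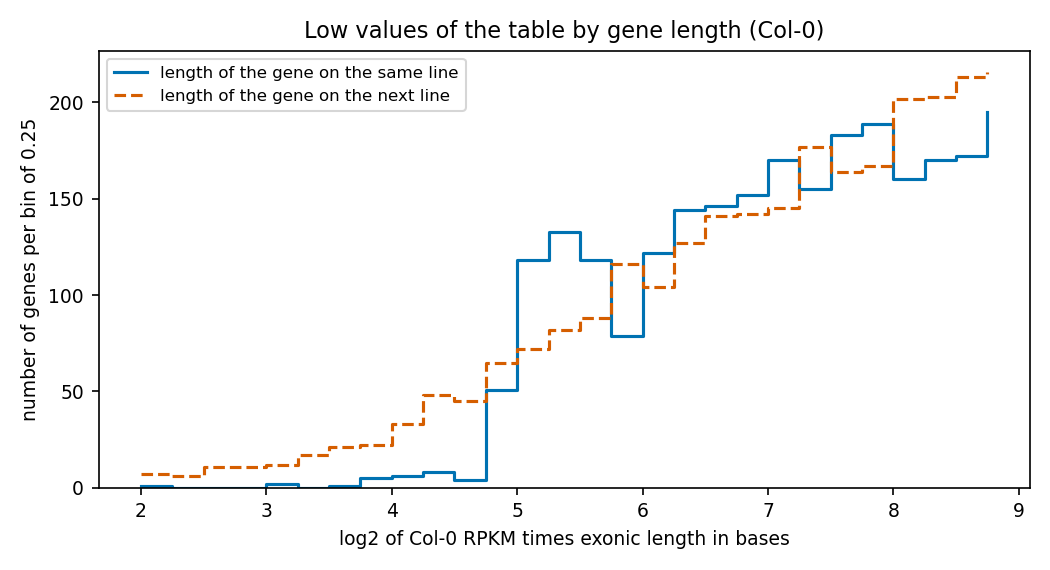
Number of genes per bin (vertical axis) against log2 of Col-0 RPKM times exonic length (horizontal axis), with each value multiplied by the length of the gene on its own line (solid) or of the gene on the next line (dashed). With its own length the distribution has a sharp lower edge near log2 of 5 and a peak at the size of 1 read pair, and with the next line's length the edge is lost.

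The precision of the members differs by their depth. From the size of 1 read pair, ARL rested on about 636 to 4169 read pairs in the 2 samples of a genotype together and ARGOS on about 379 to 1573. ORS1 rested on about 301 read pairs in hls1, 91 in pifq, 16 in ein3 eil1, 37 in pifq ein3 eil1 and 76 in Col-0. The counting error alone was then about 24.8% of the ein3 eil1 value of ORS1 and 16.4% of its pifq ein3 eil1 value, against at most 5.14% for any ARGOS value and 3.96% for any ARL value. These errors are approximate and cover counting only: read pairs copied during amplification are not independent, and the gene lengths behind the deposited values are not known.

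The comparison of ein3 eil1 with Col-0 addresses how much of each transcript depends on EIN3 and EIL1. All 3 members were called lower in ein3 eil1, where 2.51% of all genes compared were called lower and 1.63% higher. ARL was 4.79 times lower, a difference in log2(RPKM + 1) of -2.21, and it ranked 32 from the lowest of 18581 genes. ARGOS was 2.47 times lower, with a difference of -1.27, and ORS1 4.50 times lower, with a difference of -1.32. The ratio and the log2 difference part for ORS1 because the pseudocount of 1 is large beside its level. The median of all genes was itself -0.29 in this comparison. After median-of-ratios scaling, which removes that shift, the differences were -1.89 for ARL, -1.14 for ORS1 and -0.95 for ARGOS, which was then not called, while 1.12% of genes were called lower.

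The comparison of pifq ein3 eil1 with pifq asks the same of seedlings without the 4 PIFs, and it shares no sample with the previous one. ARL and ARGOS were called lower in pifq ein3 eil1, against 1.12% of all genes called lower and 1.76% higher. ARL was 3.44 times lower, a difference of -1.74 that ranked 43 from the lowest. ARGOS was 2.24 times lower, with a difference of -1.12, or -0.998566 after scaling, just short of the call. ORS1 was 2.52 times lower in RPKM, with a difference of -0.95 that did not reach the threshold. Over all genes 81 were lower in both comparisons, which is 17.3% of the 467 genes lower in ein3 eil1 and 38.8% of the 209 genes lower in pifq ein3 eil1. ARL and ARGOS were among these 81. After scaling 48 genes were lower in both, 23.1% of 208 and 30.8% of 156, and ARGOS, called in neither comparison, was not one of them.

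Loss of the PIFs was compared in seedlings with and without EIN3 and EIL1. No member was called in pifq against Col-0, where 6.22% of genes were called lower and 3.39% higher. ARGOS had a difference of -0.81, at 35.2 RPKM in pifq against 62.6 RPKM in Col-0, ARL had -0.42 and ORS1 had 0.19. No member was called in pifq ein3 eil1 against ein3 eil1 either, where 3.99% of genes were lower and 4.04% higher. The differences were -0.66 for ARGOS, 0.05 for ARL and 0.56 for ORS1, which rested on about 37 read pairs in pifq ein3 eil1 and 16 in ein3 eil1. The interaction on the log2 scale, the effect of PIF loss without EIN3 and EIL1 minus that with them, was 0.16 for ARGOS, 0.47 for ARL and 0.37 for ORS1, and the median of all genes was 0.18. None was called, where 1.50% of genes were called below zero and 3.35% above.

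In pifq ein3 eil1 against Col-0, ARL and ARGOS were called lower, where 6.04% of genes were lower and 3.81% higher. ARL was 4.62 times lower, with a difference of -2.16, and ARGOS 3.99 times lower, with a difference of -1.93. ORS1 was at 1.58 RPKM in pifq ein3 eil1 against 3.36 RPKM in Col-0, a difference of -0.76 that was not called. ARL was thus about as low in this mutant as in ein3 eil1, whereas ARGOS had its lowest value of all genotypes in it. This comparison shares Col-0 with that of ein3 eil1 and uses the pifq ein3 eil1 samples of that against pifq, so the 3 are not independent.

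In hls1 against Col-0, ORS1 was called higher, where 3.40% of genes were higher and 4.00% lower, and the other members were not called. ORS1 was 4.61 times higher, with a difference of 1.92 that ranked 101 from the highest of 18581 genes. ARL was at 158 RPKM in hls1 against 103 RPKM in Col-0, a difference of 0.61, and ARGOS was at 79.4 RPKM against 62.6 RPKM, a difference of 0.34. The ORS1 difference rested on about 301 read pairs in hls1 and 76 in Col-0 and was 1.86 after scaling.

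**Figure D3:**
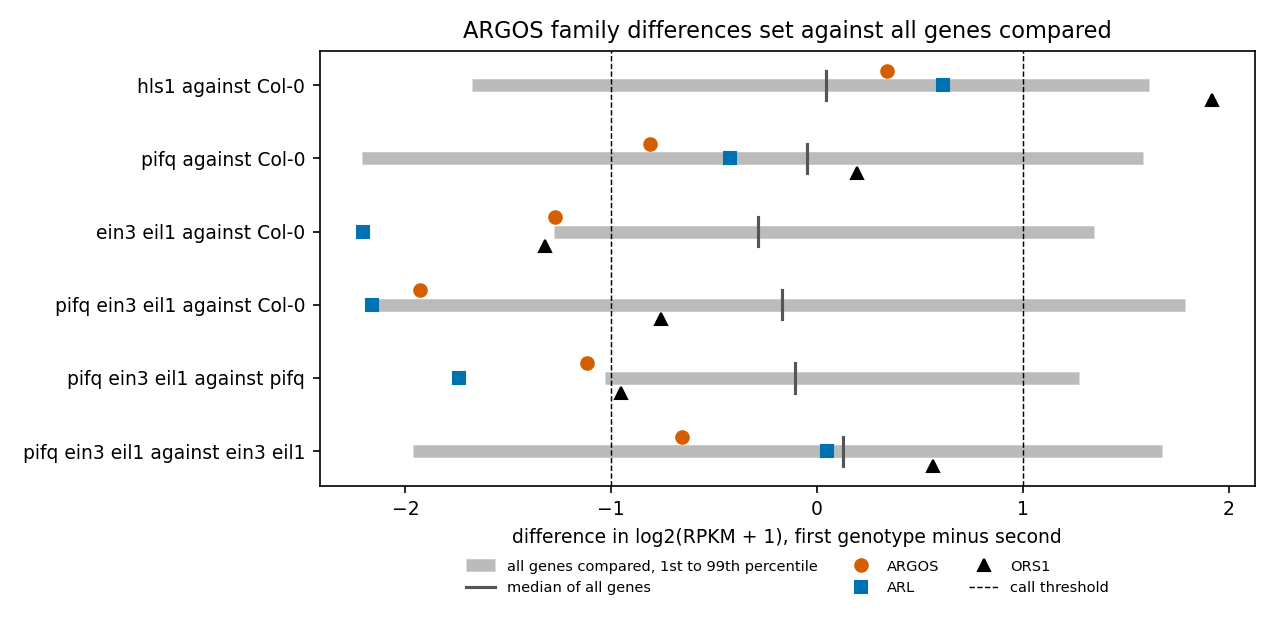
Difference in log2(RPKM + 1), first genotype minus second (horizontal axis), of ARGOS (circles), ARL (squares) and ORS1 (triangles) in 6 comparisons, over grey bars that span the 1st to 99th percentile of all genes compared, with a tick at their median and dashed lines at the call threshold. ARL lies outside the grey bar in both comparisons of EIN3 EIL1 loss, at -2.21 and -1.74, and ORS1 lies outside it in hls1, at 1.92; ORS1 in ein3 eil1 and ARGOS in pifq ein3 eil1 against pifq lie just past its lower end, as does ARL in pifq ein3 eil1 against Col-0.

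The genes around the ARGOS family in the ethylene pathway were a list of 17 receptors and signalling components, of which 16 were compared. In ein3 eil1 against Col-0, 6 were called lower and none higher, where 2.51% of all genes were lower and 1.63% higher. The list median was -0.63, beside -0.29 for all genes. After scaling 4 were lower, where 1.12% of all genes were. EBF2 and EBF1, F-box proteins that send EIN3 and EIL1 to degradation, and the receptors ETR2 and ERS2 had the most negative differences, at -3.37, -1.82, -3.04 and -1.59. In pifq ein3 eil1 against pifq, 4 were called lower and none higher, where 1.12% of all genes were lower and 1.76% higher. The list median was -0.22, beside -0.11 for all genes. After scaling 3 were lower, where 0.840% of all genes were. EBF2 was at 8.07 RPKM in pifq ein3 eil1 against 65.8 RPKM in pifq, ETR2 at 5.95 against 21.2 RPKM, EBF1 at 8.90 against 26.8 RPKM and ERS2 at 1.77 against 4.62 RPKM. ARL, at -2.21 and -1.74 in these comparisons, had more negative differences than EBF1 in both, and its values beside ETR2 were -2.21 against -3.04 with the PIFs and -1.74 against -1.67 without them. The pseudocount of 1 shrinks differences more at low RPKM, and by the ratio of RPKM ETR2 fell more than ARL in both comparisons. ARGOS was at -1.27 against -1.59 for ERS2 with the PIFs and -1.12 against -1.02 without them. By the ratio of RPKM, ERS2 likewise fell more than ARGOS in both comparisons. RTE1, a membrane protein that acts on the receptor ETR1, was named after its values were seen because ARGOS proteins are known to bind RTE1 proteins. It was at 4.73 RPKM in ein3 eil1 against 11.4 RPKM in Col-0, a difference of -1.12, or -0.83 and not called after scaling. In pifq ein3 eil1 it was at 5.11 RPKM against 6.50 RPKM in pifq, a difference of -0.29. Likewise named for their place between receptor and transcription factor, EIN2 was at 31.2 RPKM in ein3 eil1 against 53.4 RPKM in Col-0 and CTR1 at 18.8 against 30.1 RPKM, both under the threshold.

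**Figure D4:**
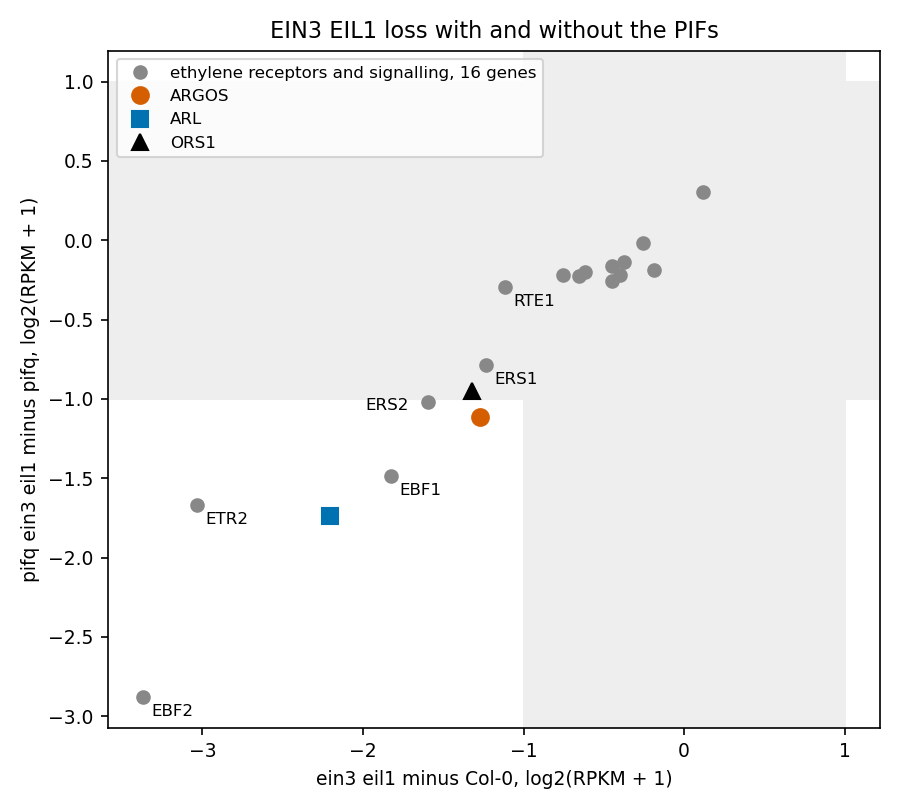
Difference in log2(RPKM + 1) of ein3 eil1 minus Col-0 (horizontal axis) and of pifq ein3 eil1 minus pifq (vertical axis) for the ARGOS family and 16 ethylene receptor and signalling genes; grey bands mark differences under the threshold, and genes past it in either comparison are named. ARL and ARGOS lie with EBF2, ETR2, EBF1 and ERS2 in the region lower in both, and ORS1 lies at -1.32 and -0.95.

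In hls1 against Col-0 the receptor and signalling list had no called member, where 4.00% of all genes were lower and 3.40% higher. It had none in pifq against Col-0 either, where 6.22% of all genes were lower and 3.39% higher. The list medians were 0.29 and -0.32, beside 0.04 and -0.05 for all genes. The 2 list members with the highest mean over the 5 genotypes were EBF2 and EIN2. EBF2 was at 114 RPKM in hls1 and 65.8 RPKM in pifq against 86.1 RPKM in Col-0, and EIN2 at 52.6 and 32.4 RPKM against 53.4 RPKM. In pifq ein3 eil1 against ein3 eil1, ETR2 was the 1 higher member, where 4.04% of all genes were higher and 3.99% lower. It was at 5.95 RPKM against 2.37 RPKM and was not called after scaling. ETR2 was also the 1 member called in the interaction, at 1.36, where 3.35% of all genes were called above zero and 1.50% below. In pifq ein3 eil1 against Col-0, where 6.04% of all genes were lower and 3.81% higher, 6 of the 16 were lower and none higher, with a list median of -0.66 beside -0.17 for all genes; after scaling 5 were lower.

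Ethylene response genes outside the receptor loop were called in both directions. Of 8 listed response genes 6 were compared; ERF1 and PDF1.2 did not reach 1 RPKM in any genotype. EDF3, a transcription factor gene of the RAV group, was the 1 lower member in ein3 eil1, at 12.5 RPKM against 34.2 RPKM in Col-0. None was higher there, where 2.51% of all genes were lower and 1.63% higher. In pifq against Col-0, 3 of the 6 were lower and none higher, where 6.22% of all genes were lower and 3.39% higher. These were EDF3, at 4.33 RPKM, EDF4, at 49.2 against 101 RPKM, and HCHIB, at 1.91 against 5.72 RPKM. After scaling 2 were lower. HCHIB, a chitinase gene, was the 1 called member in pifq ein3 eil1 against pifq and was higher, at 5.08 RPKM against 1.91 RPKM. In that comparison 1.76% of all genes were higher and 1.12% lower, and the HCHIB level in Col-0 was 5.72 RPKM. Ethylene synthesis genes also went both ways. Of 11 compared, 1 was lower and 1 higher in ein3 eil1 against Col-0, where 2.51% of all genes were lower and 1.63% higher. The list median was -0.11, beside -0.29 for all genes. After scaling none was lower and 1 was higher in this comparison. In pifq 5 were lower and 1 higher, where 6.22% of all genes were lower and 3.39% higher, and the list median was -0.85. In hls1, where ORS1 was high, 2 were higher and 1 lower, where 3.40% of all genes were higher and 4.00% lower, and the list median was 0.09. ACO4, which encodes an ACC oxidase, the last enzyme of ethylene synthesis, stood at 885 RPKM in hls1 against 41.6 RPKM in Col-0. The part of ethylene production in the ORS1 level was not tested.

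The lists for auxin, which induces ARGOS, and brassinosteroid, which induces ARL, had no called member in ein3 eil1 against Col-0. In that comparison 2.51% of all genes were lower and 1.63% higher. Of 12 auxin-responsive genes none was called in hls1 or ein3 eil1 against Col-0, and 7 were lower in pifq, where 6.22% of all genes were, with a list median of -1.07 beside -0.05 for all genes; after scaling 6 were lower. IAA29 was at 2.26 RPKM in pifq against 26.5 RPKM in Col-0 and IAA19 at 56.8 against 319 RPKM. Of 9 brassinosteroid genes 2 were lower in pifq, ROT3 at 4.78 RPKM against 17.6 RPKM and BR6OX2 at 16.5 RPKM against 42.1 RPKM, both enzymes of brassinosteroid synthesis; the list median was -0.59, beside -0.05 and 6.22% lower for all genes. BES1, a transcription factor gene of brassinosteroid signalling, was the 1 higher member of the 9 in hls1, where 3.40% of all genes were higher, at 122 RPKM against 46.1 RPKM, and the list median was 0.63. Of 9 organ size genes 2 were higher in hls1 and none lower, where 3.40% of all genes were higher and 4.00% lower. The list median was 0.16, beside 0.04 for all genes. KLU, a cytochrome P450 gene that promotes organ growth, was at 86.4 RPKM against 15.2 RPKM. The expansin gene EXPA10 was at 36.0 RPKM against 17.0 RPKM and was not called after scaling. EXPA10 was also called higher against Col-0 in pifq, at 83.7 RPKM, and in pifq ein3 eil1, at 77.0 RPKM. None of the 9 was called in ein3 eil1, where 2.51% of all genes were lower and 1.63% higher. ANT, the transcription factor gene through which ARGOS acts on cell number, was named after its values were seen and was at 3.61 RPKM in ein3 eil1 and 6.42 RPKM in hls1 against 5.61 RPKM in Col-0.

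Each member was also compared with 5361 other named genes that reached 10 RPKM, by the root mean square distance between profiles of log2(RPKM + 1) over the 5 genotypes, each centred on its own mean. The 5 nearest genes to ARGOS were the ethylene receptor genes ERS2 and ERS1, at distances of 0.12 and 0.18, followed by EXO, TRM28 and CXE5 at 0.23 to 0.27. ERS1 stood at 66.2 RPKM in hls1, 29.4 in pifq, 19.0 in ein3 eil1, 16.6 in pifq ein3 eil1 and 46.2 in Col-0, the same order of genotypes as ARGOS. The nearest to ARL were EIL1 at 0.11, EBF1 at 0.16 and EIN3 at 0.17, then IAGLU, an auxin glucosyltransferase gene, and FLS2, the flagellin receptor gene, at 0.25 and 0.26. EIN3 and EIL1 are themselves mutated in the low genotypes. The nearest to ORS1 were AHP1, a phosphotransfer protein gene of cytokinin signalling, at 0.28, the ethylene response factor genes Rap2.6L and EBP at 0.29 and 0.31, CYP78A7 at 0.37 and XTH16 at 0.44. EBP stood at 192 RPKM in hls1, 93.6 in pifq, 18.2 in ein3 eil1, 34.4 in pifq ein3 eil1 and 44.5 in Col-0. Between members, ARL lay at 0.47 from ARGOS, ORS1 at 0.51 from ARL and ORS1 at 0.65 from ARGOS. Ranked with the genes around ARL, ARGOS came at place 9 and ORS1 at place 11, and around ORS1 the place of ARL was 15 and that of ARGOS 62. Around ARGOS, ARL came at place 102 and ORS1 at place 1194. These distances rest on 5 points that share the authors' scaling, and are a description. The pseudocount of 1 also narrows the profiles of genes at low RPKM, such as ORS1 and ERS2, the latter at 1.77 to 11.5 RPKM.

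**Figure D5:**
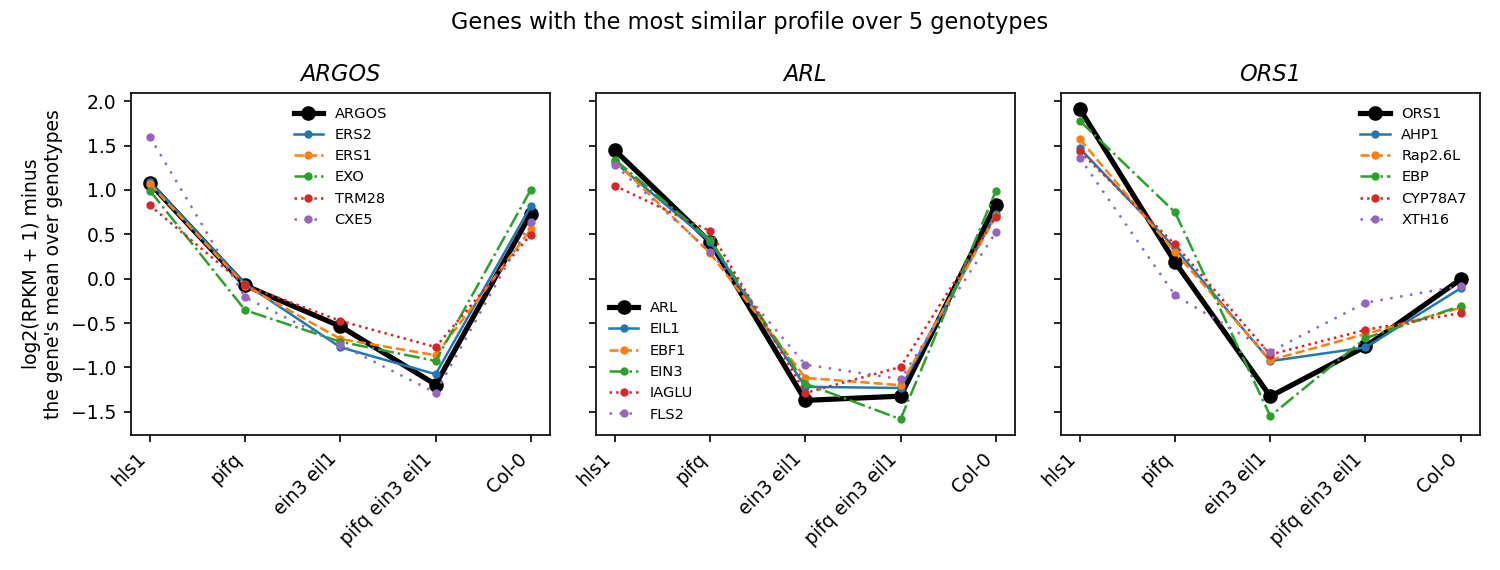
log2(RPKM + 1) minus the mean over genotypes (vertical axis) in hls1, pifq, ein3 eil1, pifq ein3 eil1 and Col-0 for each member (thick black line) and the 5 genes with the nearest profile (thin lines); lines join separate genotypes only to guide the eye. ERS2 and ERS1 run with ARGOS, EIL1, EBF1 and EIN3 with ARL, and AHP1, Rap2.6L and EBP with ORS1.

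Because ARGOS and ARL were lower together without EIN3 and EIL1, the bases before each gene's annotated start were searched for motif letters. The window ran from 250 bases before to 50 bases after the start, both strands were read, and the same window of 26694 protein-coding genes gave the share of promoters with each motif. The motifs were ATGTA, core letters of sites bound by EIN3, present in 56.5% of promoters; CACGTG, the G-box, in 7.79%; CATGTG, the PBE-box, in 13.0%; CGTGTG, a BZR1 and BES1 type site, in 6.51%; and TGTCTC, an auxin response element, in 14.2%. ARGOS had 1 ATGTA match on the opposite strand at bases -115 to -111 and 1 CGTGTG match on the opposite strand at bases 12 to 17. ORS1 had 1 ATGTA match on the opposite strand at bases -72 to -68 and 1 TGTCTC match on the opposite strand at bases 2 to 7. No searched motif lay in the ARL window, which says only that these letters are not in it, and no match overlapped another. The 250 bases before each start are printed with matches in capitals, from the RefSeq TAIR10.1 genome and 5′ to 3′ on the strand of the gene, for ARGOS from chr3:22129255-22129504 (plus strand), for ARL from chr2:18236539-18236788 (plus strand) and for ORS1 from chr2:17195698-17195947 (minus strand).
ARGOS: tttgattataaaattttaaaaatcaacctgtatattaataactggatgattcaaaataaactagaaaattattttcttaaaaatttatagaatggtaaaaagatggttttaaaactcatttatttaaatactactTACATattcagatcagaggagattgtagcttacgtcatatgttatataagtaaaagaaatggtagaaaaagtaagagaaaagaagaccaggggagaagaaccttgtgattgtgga
ARL: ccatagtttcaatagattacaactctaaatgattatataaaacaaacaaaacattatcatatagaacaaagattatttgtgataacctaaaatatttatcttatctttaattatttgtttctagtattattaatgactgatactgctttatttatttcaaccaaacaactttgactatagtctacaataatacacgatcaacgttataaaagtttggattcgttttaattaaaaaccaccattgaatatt
ORS1: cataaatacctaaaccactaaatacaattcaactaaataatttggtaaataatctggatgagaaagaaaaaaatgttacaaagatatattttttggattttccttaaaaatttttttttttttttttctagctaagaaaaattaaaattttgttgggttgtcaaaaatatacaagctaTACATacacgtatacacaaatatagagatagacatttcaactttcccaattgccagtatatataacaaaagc
A match to the ATGTA letters is common in windows of this length, and binding was not measured in these samples.

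The nearest genes along the chromosome were set beside the members. AT3G59910 ends 10 bases beyond ARGOS on the opposite strand and was at 15.9 RPKM in ein3 eil1 against 23.1 RPKM in Col-0, and at 20.1 RPKM in pifq ein3 eil1 against 26.4 RPKM in pifq. AT2G44090 lies 95 bases beyond ARL on the opposite strand and was at 12.9 RPKM in ein3 eil1 against 15.7 RPKM in Col-0, and at 11.9 RPKM in pifq ein3 eil1 against 14.8 RPKM in pifq. Both stayed under the threshold in these comparisons. On the other side of ARL, AT2G44070 lies 4158 bases away and was at 3.42 RPKM in hls1 and listed at 0 in ein3 eil1, against 0.344 RPKM in Col-0. AT2G41240 (BHLH100), 2339 bases from ORS1, was at or below 0.0657 RPKM in all genotypes, and AT2G41225, 3261 bases away on the other side, was listed at 0 in every genotype.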

How the data were processed

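Polyadenylated RNA of 10 samples, 2 in each of 5 genotypes, was sequenced as paired 150 nt reads. Per the submitters' processing notes, reads were aligned with BWA 0.7.7 to TAIR10. The deposited table holds RPKM made by the authors, in 1 column per genotype; no counting tool, strand setting or gene length is stated in the sources used here. Because no value belongs to a single sample, limma could not be run and the fallback rule was used: an absolute difference of 1 or more in log2(RPKM + 1) among genes reaching 1 RPKM in at least 1 genotype. The members and lists were chosen with earlier results of these data known. Named genes are the members, the mutated genes, up to 4 called genes per list (otherwise its 2 most abundant), and the 5 nearest profiles of each member; others are said to be chosen after their values were seen. Of 33559 identifiers, 32817 were found in the RefSeq gene table. Sequences came from RefSeq TAIR10.1, a minor revision of TAIR10 with the same nuclear chromosome sequences, aligned with MAFFT 7.526 and searched with BLAST 2.17.0. Alternatives were quantile normalization, median-of-ratios scaling, pseudocounts of 0.1 and 0.5, a log2 difference of 2, testing every gene, and a minimum of 5 RPKM. The calling step was tested on simulated data. Computations used Python 3.11.15, pandas 2.3.3 and numpy 2.4.6.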

Additional observations from a re-analysis of the deposited data

How the results depend on the processing

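Of 126 recomputed member differences over 6 settings, 119 stayed on the same side of the threshold and no called one reversed. Another 4 uncalled ones changed sign. Testing every gene and a minimum of 5 RPKM change only which genes are compared, so no member difference could move under them. The count of 119 includes these fixed values, and every change came from a pseudocount or a scaling. In ein3 eil1 against Col-0, ARGOS was -0.95 after median-of-ratios scaling and -0.92 after quantile normalization, and in pifq ein3 eil1 against pifq -0.998566 and -0.986811, in each case no longer called, which left 1 member called in the last comparison under each scaling. With a pseudocount of 0.1, ORS1 was called in pifq ein3 eil1 against Col-0 at -1.04 and against pifq at -1.28, and with a pseudocount of 0.5 against pifq at -1.11; the smaller pseudocount weighs low values more. With a pseudocount of 0.1 the genes called were 2200 in hls1, 2688 in pifq and 1504 in ein3 eil1 against Col-0, 1142 and 2420 for pifq ein3 eil1 beside pifq and beside ein3 eil1, and 1724 for the interaction. At a log2 difference of 2, against Col-0, they were 195 for hls1, 355 for pifq, 135 for ein3 eil1 and 367 for pifq ein3 eil1; pifq ein3 eil1 had 75 set beside pifq and 287 set beside ein3 eil1, and the interaction had 156. The members called were then 0 for hls1, 1 for ein3 eil1 (ARL) and 1 for pifq ein3 eil1 (ARL) against Col-0, and 0 for pifq ein3 eil1 against pifq. Median-of-ratios scaling moved the share of calls that were higher to 67.9% for ein3 eil1 and 51.6% for pifq ein3 eil1 against Col-0, 71.8% and 38.5% for pifq ein3 eil1 beside pifq and beside ein3 eil1 and 53.2% for the interaction, from 39.4%, 38.7%, 61.0%, 50.3% and 69.0% without it. No paired analysis was possible because the table holds 1 value per genotype, and leaving out a replicate could not be run for the same reason. Depth limits ORS1 in ein3 eil1 and pifq ein3 eil1, at about 16 and 37 read pairs.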
